A study of Homo sapiens with 22 samples.

Results

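This is a description of the JUN-bound regions of PC3 cells at which the vehicle FOXA2 ChIP called no FOXA2. They were selected on readouts: of the 23890 regions in the JUN list of PC3 cells under a control siRNA (siNC), those were taken that shared no base with the FOXA2 list of vehicle-treated PC3 cells and were overlapped in fewer than 17 of the 22 lists of the series. The rule took 13253 regions, of 871377 regions in all lists together. They are called FOXA2-free regions below, by that one FOXA2 list alone, and the name does not say that FOXA2 is absent there. In a further pair of vehicle PC3 FOXA2 ChIPs, described below, 34.2% of these regions were overlapped in both. The other side of the rule, 10251 JUN regions that shared at least 1 bp with the vehicle FOXA2 list and lay in fewer than 17 lists, is called the FOXA2-bound JUN regions. Without that limit there were 10635 of them, so every share given for FOXA2-bound JUN regions lacks those held by most lists. Since the vehicle FOXA2 list chose the members, its absence from them is not a result. Of all PC3 JUN regions, 44.5% overlapped it.

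The study followed the pioneer factor FOXA2 and the AP-1 subunits JUN and FOSL1 in 3 established human prostate cancer cell lines: PC3, NCI-H660, a neuroendocrine line, and LNCaP, a line of luminal type. ChIP-seq sequences the DNA recovered with an antibody against a protein, ATAC-seq maps chromatin open to a transposase, and each deposited list gives the enriched regions of 1 library with a score for most lists. In PC3 the lists used here are JUN and FOSL1 after negative control knockdown (siNC, 23890 and 3843 regions) and after FOXA2 knockdown (siFOXA2, 4081 and 1538), FOXA2 under vehicle (24038), under ORY-1001 at 10 µM (13732) and under C12 at 0.5 µM (8352), each for 4 h, and H3K27ac (90468) and ATAC (210960) under vehicle. Both compounds are inhibitors of the demethylase LSD1. A further pair of vehicle PC3 FOXA2 ChIPs, which the series lists later and whose antibody is not labelled, held 77822 and 62714 regions and is called the later FOXA2 ChIPs. NCI-H660 gave JUN under siNC (18401) and siFOXA2 (59452), FOXA2 under vehicle (11886) and ORY-1001 at 10 µM for 4 h (11469), ATAC (99959) and H3K4me2 (70388). LNCaP gave JUN under siNC (2421), under FOXA1 knockdown (siFOXA1, 1964), in cells stably expressing FOXA2 (FOXA2OE, 23994) and in cells titled FOXA2K265R (47505), whose cell line label is that of FOXA2OE, and FOXA2 in FOXA2OE (2500). Apart from the later FOXA2 ChIPs, each group is 1 library, so there is no replicate check, no p-value was computed, and every interval given is a 95% interval of counting error. The lists hold no read totals. Depth is therefore unknown, and a region missing from a shorter list is a region not called there, not a region shown to be unbound. JUN was profiled in transfected cells and FOXA2 in vehicle-treated cells, so the rule also crosses 2 kinds of culture.

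JUN is a basic leucine zipper protein that binds DNA as a dimer. With FOS family partners such as FOSL1 it forms AP-1, whose preferred site is the palindrome-like word TGACTCA or its complement TGAGTCA, and with ATF and CREB family partners it binds the longer cAMP response element (CRE) TGACGTCA. FOXA2 is a forkhead factor that can bind compact chromatin and open it for other factors, and forkhead factors prefer words such as TGTTTAC. AP-1 sites lie mostly in enhancers, whereas CREs are common close to transcription start sites.

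Sequences of the highest-scoring FOXA2-free regions show what the JUN regions hold. All are read from the plus strand of the hg19 (GRCh37) reference, 5′ to 3′, and capitals mark AP-1 words (TGACTCA or TGAGTCA), CRE words and forkhead words. The distal region with the highest JUN score lies 51171 bp from the start of NRP1, which encodes neuropilin, a semaphorin and VEGF co-receptor. KCNMA1 encodes a calcium-activated potassium channel and FUT8 a fucosyltransferase. The region named for FOSL1 lies 15294 bp from its start, but its nearest gene is C11orf68, at 2287 bp. SEPTIN9 encodes a septin of the cytoskeleton, TNFRSF12A the TWEAK receptor, and S100A2 a calcium-binding protein of basal epithelium. S100A2 overlaps a UTR and is shown with 11 bases on either side of 1 site.
NRP1 distal, chr10:33423126-33423232: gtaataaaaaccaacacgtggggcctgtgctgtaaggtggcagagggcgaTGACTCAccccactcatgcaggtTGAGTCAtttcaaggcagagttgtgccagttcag
KCNMA1 intron, chr10:79110585-79110691: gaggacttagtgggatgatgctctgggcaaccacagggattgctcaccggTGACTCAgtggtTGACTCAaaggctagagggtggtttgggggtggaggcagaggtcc
FUT8 distal, chr14:65823120-65823226: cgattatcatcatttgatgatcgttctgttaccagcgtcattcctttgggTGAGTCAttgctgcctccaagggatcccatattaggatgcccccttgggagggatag
FOSL1 distal, chr11:65683336-65683442: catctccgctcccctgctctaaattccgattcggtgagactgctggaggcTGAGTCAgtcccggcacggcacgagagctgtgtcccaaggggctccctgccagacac
SEPTIN9 promoter, chr17:75319275-75319381: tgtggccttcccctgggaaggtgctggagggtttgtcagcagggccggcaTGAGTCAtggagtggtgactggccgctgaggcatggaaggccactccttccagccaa
TNFRSF12A promoter, chr16:3070928-3071034: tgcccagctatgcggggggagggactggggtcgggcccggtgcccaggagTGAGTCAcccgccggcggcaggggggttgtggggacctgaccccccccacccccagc
S100A2 promoter, chr1:153539159-153539187: tcagccctaagTGACTCAcccgaggttcc

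The first 4 sequences are distal and carry 1 or 2 AP-1 words and no forkhead word in the stretch shown. A smaller set of promoter regions held a CRE in place of an AP-1 word. The 3 below had the highest JUN scores of that set and were chosen after their values were seen. RPS29 encodes a ribosomal protein, MAFF a small MAF protein and JUND a JUN family subunit of AP-1, and capitals mark the CRE.
RPS29 promoter, chr14:50053236-50053265: ggcccagttgaTGACGTCAccataccacag
MAFF promoter, chr22:38597936-38597965: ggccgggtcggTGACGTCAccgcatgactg
JUND promoter, chr19:18392614-18392643: gccttgtgggtTGACGTCAtgggggcggcc

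FOXA2-free regions had low and high JUN scores, but not the highest of the list. The score is a whole number that MACS2 gave each region and is read here as about 10 times the −log10 q-value. Its median was 133, with 10% of the regions under 42 and 10% over 381, a minimum of 13 and a maximum of 7149. FOXA2-bound JUN regions had a median of 170 and a maximum of 6009, and the medians of region width were 302 and 342 bp. The maximum over all PC3 JUN regions was 126355, in a region that the limit of 17 lists removed. The windows around FOXA2-free regions were richer in G and C (mean 47.4%) than those of FOXA2-bound JUN regions (40.8%). By chromosome, FOXA2-free regions made up 76.7% of these JUN regions on chromosome 19, 75.1% on chromosome 22 and 67.2% on chromosome 16, and 50.97% on chromosome 13, the lowest share of an autosome. The median distance to the nearest vehicle FOXA2 region was 25165 bp. At the edge of the rule, 21 members lay within 100 bp of a vehicle FOXA2 region and 726 (5.48%) within 1 kb, while on the other side 5 FOXA2-bound JUN regions shared only 1 to 20 bp with one. On the list count, 6 members lay in 16 lists, such as chr1:10056-10441 with a JUN score of 219. On the FOXA2-free side the limit removed 2 regions, chr1:236260413-236260679 in 17 lists with a score of 3666 and chr4:49514537-49514914 in 20 lists with a score of 175. On the FOXA2-bound side it left 10251 of 10635 regions. The median member lay in 4 lists, its own included, and 373 members (2.81%) lay in no other list.

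Promoters were more frequent among the FOXA2-free regions. A promoter region is one within 1 kb of the start of a protein-coding transcript, and all others are called distal. Of the FOXA2-free regions 1684 (12.7%, interval 12.2 to 13.3) were at promoters, against 3.17% of the FOXA2-bound JUN regions, a difference of 9.54 percentage points (8.88 to 10.2). The share over all PC3 JUN regions was 8.44%. The promoter share was highest among weak regions: it was 24.2% in the lowest decile of JUN scores (scores up to 49) and 10.7% in the highest decile (455 and over). Distal members numbered 11569. Promoter members had a median JUN score of 99 and a mean GC content of 61.6%, and distal members of 138 and 45.3%.

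About as many FOXA2-free regions met FOXA2 in a later ChIP as met it in neither. The first of the later FOXA2 ChIPs overlapped 6132 of them (46.3%), against 66.9% of all PC3 JUN regions, and the other 5009 (37.8%), against 61.7%. Both later ChIPs overlapped 4534 (34.2%, 33.4 to 35.0), one of them 2073 (15.6%) and neither 6646 (50.2%). FOXA2-bound JUN regions were overlapped in 93.8% and 92.8% of cases. Where a FOXA2-free region was overlapped, the later FOXA2 region ranked low in its own list: the median rank percentile was 42.4 in the first and 37.8 in the other, against 86.0 and 83.1 at FOXA2-bound JUN regions. Requiring a score of at least 100 in both later lists left 15.1% of the FOXA2-free regions. The later lists are longer than the vehicle list, and their antibody, library kit and depth cannot be told apart.

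Distal members met the later ChIPs more often than promoter members did. The first later ChIP overlapped 49.2% of distal and 25.9% of promoter members, and the other 40.4% and 19.7%. The differences were −23.3 points (−25.6 to −21.01) and −20.8 points (−22.8 to −18.6) for promoter minus distal. The 2 splits gave 6 classes: 279 promoter members were in both later ChIPs, 209 in one and 1196 in neither, and 4255 distal members were in both, 1864 in one and 5450 in neither.

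The FOXA2 lists under LSD1 inhibitors and those of the other lines, all shorter than the later vehicle lists, met few of the members. FOXA2 under ORY-1001 overlapped 533 members (4.02%) and under C12 198 members (1.49%), where all PC3 JUN regions gave 26.0% and 21.5% and FOXA2-bound JUN regions 51.7% and 44.4%. Members in both later ChIPs met the ORY-1001 list in 7.28% of cases and those in neither in 2.30%. In NCI-H660, FOXA2 overlapped 1.06% of the members under vehicle and 1.26% under ORY-1001, against 6.49% and 6.55% of all PC3 JUN regions and 10.1% and 9.87% of the FOXA2-bound ones. FOXA2 in LNCaP FOXA2OE cells overlapped 1.40% of the members, against 4.64% of all PC3 JUN regions and 5.40% of the FOXA2-bound ones. In each of these 5 lists the interval of the difference from FOXA2-bound JUN regions lay below 0. It ran from −4.49 to −3.53 points for the LNCaP list, where the difference was smallest. The vehicle FOXA2 list of PC3 chose both groups, so the direction in the PC3 lists under inhibitors is not a result. The parts of the selection and of list length in these shares were not tested.

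Nearly all FOXA2-free regions were accessible in PC3 cells, and about 3 in 4 overlapped an H3K27ac region by at least 1 bp. H3K27ac is a histone mark of active promoters and enhancers, and 3.50% of members passed when 50% of both regions had to overlap. ATAC regions overlapped 12550 of them (94.7%), against 96.0% of all PC3 JUN regions and 97.7% of FOXA2-bound ones. The share was 98.6% at promoters and 94.1% at distal members, and among distal members it was 98.5% for those in both later FOXA2 ChIPs and 89.5% for those in neither. The 703 members outside ATAC regions had a median JUN score of 38, and 29.3% of them held an AP-1 word. H3K27ac regions overlapped 10112 members (76.3%), against 77.3% of all PC3 JUN regions and 77.9% of FOXA2-bound ones. Promoter members exceeded distal members by 20.8 points (94.4% against 73.7%, interval 19.32 to 22.04). Distal members in both later ChIPs carried the mark in 78.5% of cases and those in neither in 68.5%, and with both groups weighted to the same JUN scores the difference was 6.63 points (4.93 to 8.32).

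**Figure D1:**
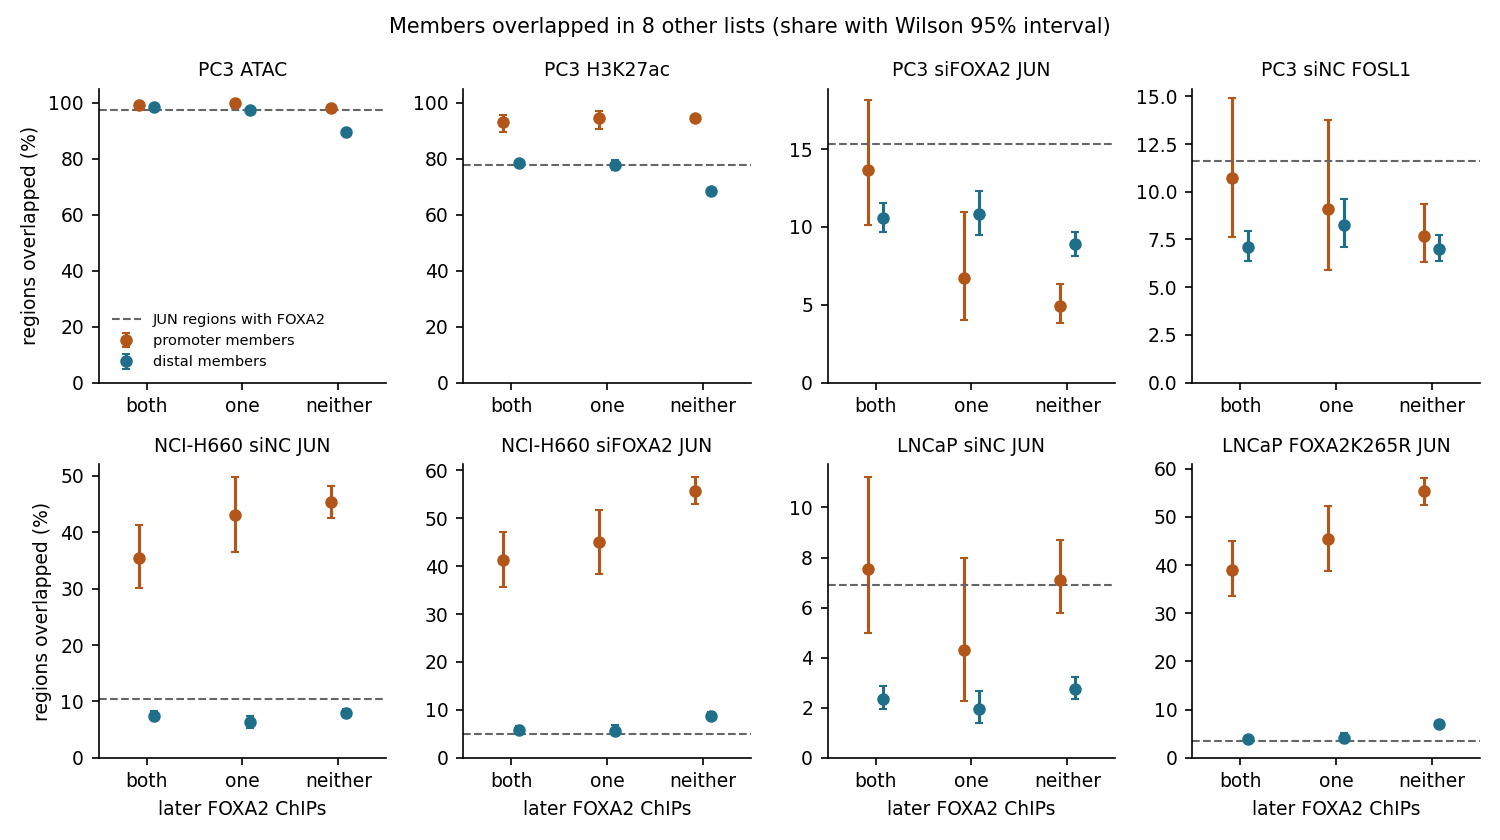
Share of FOXA2-free regions (percent, y axis, one scale per panel) overlapped by a region of 8 other lists, for promoter (orange) and distal (blue) members in both, one or neither of the later FOXA2 ChIPs (x axis). Points are shares, bars are Wilson 95% intervals, and the dashed line is the share of FOXA2-bound JUN regions. In both NCI-H660 JUN lists and in LNCaP FOXA2K265R JUN, the promoter classes lie between 35.5% and 55.8%, above the distal classes, while in PC3 siFOXA2 JUN promoter members in neither later ChIP have the lowest share, 4.93%.

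Over all regions, AP-1 words were more frequent, and forkhead words less frequent, in FOXA2-free regions than in FOXA2-bound JUN regions, but at promoters the AP-1 difference was the other way, at −10.1 points (−16.0 to −4.33). Words were counted on either strand in windows reaching 100 bp from the centre of a region. An AP-1 word (TGACTCA or TGAGTCA) lay in 56.9% of the FOXA2-free regions and in 41.5% of the FOXA2-bound ones, a difference of 15.5 points (14.2 to 16.7) and of 19.76 points (18.54 to 20.97) at equal JUN score. Windows 2 kb away from distal members held one in 3.39% of cases, and distal ATAC regions of PC3 in 18.1%, where distal members had 60.1%. A forkhead word (TGTTTAC or TGTTTAT or TGTTTGC or TGTTTGT or TATTTAC or TATTTAT or TATTTGC or TATTTGT) lay in 27.8% of the FOXA2-free regions and in 63.9% of the FOXA2-bound ones, a difference of −36.1 points (−37.3 to −34.9). The single forkhead word TGTTTAC, which is one of those 8, lay in 2.02% and 13.9%. The rule that chose the members did not use sequence.

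Forkhead words followed the later FOXA2 ChIPs. Among distal members they lay in 45.4% of those in both, 28.1% of those in one and 18.7% of those in neither, and the first and last differed by 26.8 points (24.9 to 28.6). Distal ATAC regions held one in 31.8% of cases and windows 2 kb from distal members in 32.8%. The difference of distal members in neither later ChIP from accessible distal chromatin was −13.2 points (−14.2 to −12.1). Promoter members in both held a forkhead word in 31.2% and those in neither in 6.27%, where ATAC regions at promoters had 11.4%. The single word TGTTTAC lay in 4.47% of distal members in both later ChIPs and in 0.679% of those in neither. The AP-1 word varied less, from 57.3% in both to 61.8% in neither. Mean GC content also moved with these classes, from 42.9% for distal members in both to 47.4% in neither, and its part in the forkhead shares was not tested.

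The position of the words within the regions differed in the same way. In distal members in neither later ChIP, the AP-1 word lay in the 25 bp bin just left of the centre in 18.9% of regions and in 0.44% at the outer end of the range plotted. Their forkhead word was at 2.15% in that bin and at 4.46% at the outer end, so it was rarer at the centre than beside it. In distal members in both later ChIPs the forkhead word was at 7.40% in the central bin and 6.09% at the outer end, and in FOXA2-bound JUN regions at 13.2% and 6.50%. The median distance of the nearest AP-1 word from the centre was 20.5 bp in distal members in neither, 25 bp in those in both, 23.5 bp in promoter members and 28.5 bp in FOXA2-bound JUN regions.

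**Figure D2:**
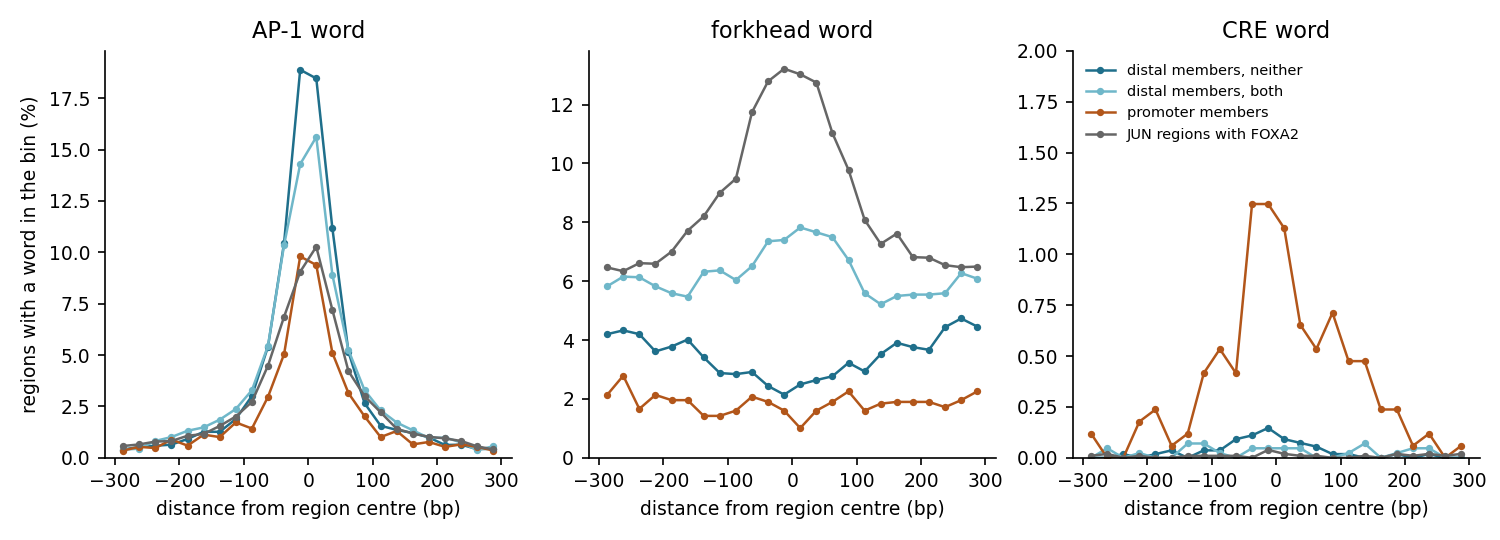
Percent of regions (y axis, one scale per panel) with an AP-1, forkhead or CRE word in each 25 bp bin by distance from the region centre (x axis, bp), for distal members in neither (dark blue) and in both (light blue) later FOXA2 ChIPs, promoter members (orange) and FOXA2-bound JUN regions (grey). The AP-1 word peaks at the centre in all 4 groups, the forkhead word peaks there in FOXA2-bound JUN regions (13.2%) and dips to 2.15% in distal members in neither later ChIP, and the CRE peaks in promoter members.

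Bases next to the AP-1 word differed in part between promoter members and the other groups. Of 8376 AP-1 words in distal members, the commonest with 1 more base on either side were ATGAGTCAC (12.3%), ATGACTCAT (11.8%) and GTGACTCAC (11.2%), counted together with their complements. In 655 words at promoter members GTGACTCAC took 17.6% (14.8 to 20.7) and ATGACTCAT 6.72%, and in 4884 words at FOXA2-bound JUN regions 9.36% and 11.3%. More than 1 AP-1 word lay in 10.6% of distal members, 3.33% of promoter members and 5.599% of FOXA2-bound JUN regions.

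The AP-1 share climbed with the JUN score, and the forkhead share of distal members went the other way. From the lowest to the highest decile of JUN scores the AP-1 word went from 21.8% to 81.0% of all members, from 5.36% to 82.7% of promoter members and from 18.1% to 59.8% of FOXA2-bound JUN regions. In the highest decile promoter and distal members were alike in this share (82.7% and 80.8%). The forkhead word went from 35.2% to 17.6% in distal members. Accessibility of the members went from 74.0% to all of the regions, and presence in both later FOXA2 ChIPs from 20.3% to 43.95%.

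**Figure D3:**
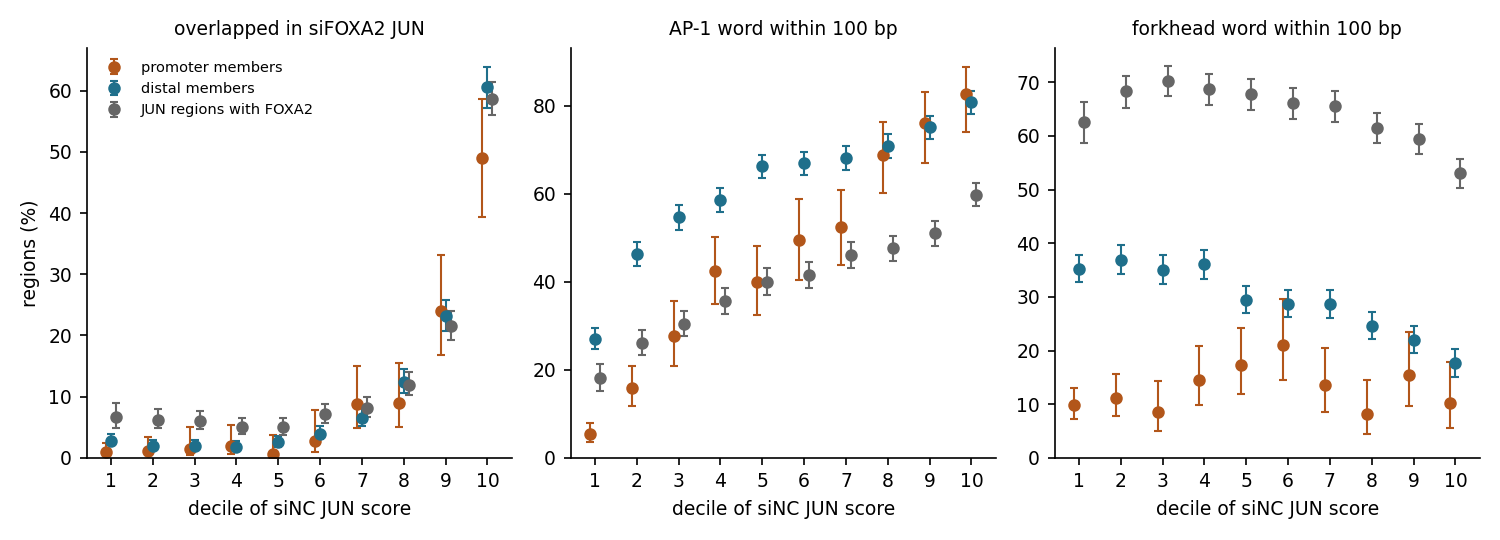
Percent of regions (y axis, one scale per panel) overlapped in the siFOXA2 JUN list, holding an AP-1 word and holding a forkhead word, by decile of the siNC JUN score over the whole list (x axis, lowest at 1), for promoter members (orange), distal members (blue) and FOXA2-bound JUN regions (grey). Points are shares with Wilson 95% intervals. The siFOXA2 share stays under 10% up to decile 7 and reaches 59.3% over all members in decile 10, the AP-1 share is higher in decile 10 than in decile 1 in every group, and the forkhead share of FOXA2-bound JUN regions lies above that of the members in each decile.

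The other words separated promoter from distal members more than they separated either from accessible chromatin. At promoters the GC box GGGCGGG bound by SP and KLF factors lay in 32.2% of members, the ETS word CCGGAAG in 8.73%, the NRF1 word GCNTGCGC in 7.42%, the NFY words CCAATCA or CCAATGA or CCAATCG or CCAATGG in 10.6% and the E-box CACGTG in 5.70%. ATAC regions at promoters had 29.1%, 7.06%, 9.01%, 9.93% and 4.66%. In distal members the TEAD word ACATTCC lay in 5.46%, the RUNX word TGTGGTT in 5.72% and the CEBP word TTGCNNAA in 10.4%, and in distal ATAC regions in 4.13%, 5.13% and 9.62%. The TEAD difference from distal ATAC regions was 1.34 points (0.927 to 1.78) and the RUNX difference 0.590 points (0.169 to 1.04), both small beside the 42.0 points (41.1 to 42.9) of the AP-1 word. A match here is a run of letters and not a measured binding site.

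Few of the FOXA2-free regions were called again in the JUN list under siFOXA2, and somewhat fewer than of the FOXA2-bound regions. The siFOXA2 list overlapped 1246 members (9.40%, 8.92 to 9.91), against 13.4% of all PC3 JUN regions and 15.3% of FOXA2-bound ones. The difference was −5.94 points (−6.80 to −5.09) for members minus FOXA2-bound regions and −2.12 points (−2.87 to −1.36) at equal JUN score, with members lower in 7 of 10 deciles. Among regions under the limit on the list count, the gap lay below decile 8. In the lowest decile 2.37% of members and 6.62% of FOXA2-bound regions were called again, and in the highest 59.3% and 58.7%. The limit counted the siFOXA2 list itself and left 10251 of 10635 FOXA2-bound JUN regions. Its part in these differences, and in the likeness of the groups at high score, was not tested. The siFOXA2 list has 4081 regions where the siNC list has 23890. When the siNC list was cut to as many of its highest-scoring regions as the siFOXA2 list holds, 43.8% of the 1706 members left (41.5 to 46.2) were called again. This cut also keeps only members of high score, and the parts of list length and score were not tested.

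Promoter members were called again under siFOXA2 less often than distal ones. The shares were 6.59% and 9.81%, a difference of −3.22 points (−4.44 to −1.83) and of −1.52 points (−2.89 to −0.159) at equal JUN score. Among promoter members, 13.6% of those in both later FOXA2 ChIPs were called again, 6.70% of those in one and 4.93% of those in neither, and at equal score the first exceeded the last by 3.40 points (0.668 to 6.13). Among distal members the shares were 10.6%, 10.8% and 8.88%. At equal score the difference between those in both and those in neither was −0.938 points, with an interval of −1.94 to 0.0623 that includes 0.

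Regions called again had higher JUN scores and held an AP-1 word more often than the other members. Their median siNC JUN score was 402.5, against 124 for the other members, and 70.6% of them held an AP-1 word, against 55.5% (difference 15.02 points, 12.3 to 17.6). More than 1 AP-1 word lay in 21.7% of them. They carried H3K27ac in 89.8% of cases, against 74.9% of the other members, and a forkhead word in 16.4%, against 29.0%. Within the highest score decile, members with an AP-1 word were called again in 60.6% of cases (57.0 to 64.0) and those without in 54.0% (46.6 to 61.3), intervals that overlap, and in decile 8 the order was the other way, 10.5% and 15.6%.

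FOSL1, the FOS family protein profiled in PC3, was called more often at members in the highest JUN score decile than in the lowest. Its siNC list holds 3843 regions where the siNC JUN list has 23890. The siNC FOSL1 list overlapped 980 members (7.40%, 6.96 to 7.85), against 10.7% of all PC3 JUN regions and 11.6% of FOXA2-bound ones, a difference of −4.22 points (−4.99 to −3.46) and of −1.69 points (−2.40 to −0.971) at equal JUN score. It was in 3.27% of members in the lowest and 44.2% in the highest score decile. Promoter and distal members had it in 8.37% and 7.25% of cases. Members called again under siFOXA2 had FOSL1 in 37.0% of cases and the other members in 4.32%, and 47.0% of the members with FOSL1 were called again by JUN. The FOSL1 list under siFOXA2 overlapped 11 members (0.083%), 0.585% of FOXA2-bound JUN regions and 1.14% of all PC3 JUN regions. Of the 980 members with FOSL1 under siNC it held 3 (0.306%, 0.104 to 0.896). FOXA2-bound regions under the limit on the list count kept 38 of 1191 (3.19%, 2.33 to 4.35). The share of all PC3 JUN regions also counts those held by most lists, which the limit left out. The 3.19% lacks these, and the part of the limit in it was not tested.

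Promoter members were JUN regions in the other cell lines far more often than distal members were. NCI-H660 JUN under siNC overlapped 12.1% of all members, against 12.8% of all PC3 JUN regions. It overlapped 43.4% of promoter and 7.49% of distal members, a difference of 35.9 points (33.5 to 38.4) and of 36.0 points (33.5 to 38.6) at equal PC3 JUN score. NCI-H660 JUN under siFOXA2, the longest JUN list, overlapped 52.0% of promoter and 7.21% of distal members, and 12.9% of all members against 10.5% of all PC3 JUN regions. Promoter members were also open in NCI-H660: its ATAC list overlapped 79.0% of them and 16.4% of distal members (24.7% of all PC3 JUN regions), and its H3K4me2 list 61.3% and 10.3% (16.8% of all PC3 JUN regions). At FOXA2-bound JUN regions at promoters NCI-H660 JUN was present in 24% of cases, and at equal score the promoter members exceeded them by 19.5 points (13.8 to 25.3).

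In NCI-H660 the FOXA2-free regions of PC3 also differed in what was called after FOXA2 knockdown. Of 1597 members in the NCI-H660 siNC JUN list, 1115 (69.8%, 67.5 to 72.0) were in its siFOXA2 list. Of 1072 FOXA2-bound JUN regions in the same list, all under the limit on the list count, 338 were (31.5%). The difference was 38.3 points (34.6 to 41.8). Among distal regions alone the difference was 27.4 points (22.97 to 31.6), and promoter members (85.8%) exceeded distal ones (56.4%) by 29.4 points (25.2 to 33.5). The limit on the list count included these NCI-H660 lists and left 10251 of 10635 FOXA2-bound JUN regions. Of all PC3 JUN regions, 3052 were in the NCI-H660 siNC list and 2513 in its siFOXA2 list. The FOXA2-bound shares lack regions held by most lists. The part of the limit in both differences from FOXA2-bound regions was not tested. In NCI-H660 the siFOXA2 list is the longer one and in PC3 the shorter one, so the shares of the lines cannot be set against each other.

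The LNCaP lists gave the same order of promoter over distal members. JUN under siNC overlapped 6.83% of promoter and 2.47% of distal members (3.03% of all members, against 6.17% of all PC3 JUN regions), and JUN under siFOXA1 3.80% and 1.79% (4.66% of all PC3 JUN regions). In FOXA2OE cells JUN overlapped 30.3% and 1.88% (4.0% of all PC3 JUN regions), and in FOXA2K265R cells 51.4% and 5.43% (8.88% of all PC3 JUN regions). Of the FOXA2-bound JUN regions 0.800% were in the FOXA2OE list and 3.45% in the FOXA2K265R list, against 5.49% and 11.3% of the members. The differences were 4.69 points (4.27 to 5.12) and 7.82 points (7.18 to 8.46). In the siNC and siFOXA1 lists the order was the other way, 6.91% and 4.60% against 3.03% and 2.045% of the members. Those differences were −3.88 points (−4.46 to −3.32) and −2.56 points (−3.04 to −2.09). The limit on the list count included all these lists, and its part in the differences was not tested. Of 115 promoter members in the LNCaP siNC JUN list, 109 were in the FOXA2K265R list (94.8%, 89.1 to 97.6) and 88 in the FOXA2OE list (76.5%). The FOXA2OE and FOXA2K265R lists were processed in folders other than that of the LNCaP siNC list, and the folder, the list length and the condition cannot be told apart.

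The word within 100 bp of the centre divided the promoter members by where else JUN was found. An AP-1 word lay in 591 promoter members (35.1%), a CRE without an AP-1 word in 96 (5.70%) and neither in 997 (59.2%). ATAC regions at promoters held an AP-1 word in 5.95% and a CRE in 1.06% of cases, and windows of 100 bp on either side of the starts of protein-coding transcripts in 2.44% and 1.502%. Promoter members as a whole held a CRE in 6.06%, 5.00 points above promoter ATAC regions (3.95 to 6.25), against 0.424% of distal members and 0.308% of FOXA2-bound JUN regions at promoters. Their AP-1 share lay 29.2 points above promoter ATAC regions (26.9 to 31.5) and their difference from FOXA2-bound JUN regions at promoters was −10.1 points (−16.0 to −4.33). At equal JUN score that difference was 0.707 points, with an interval of −4.64 to 6.06.

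Members with a CRE had a median JUN score of 92 and those with an AP-1 word of 192, and the CRE group was shared with the other lines in the largest shares. NCI-H660 JUN was present at 92.7% of CRE promoter members (85.7 to 96.4), at 33.7% of those with an AP-1 word (30.0 to 37.6) and at 44.4% of those with neither (41.4 to 47.5). LNCaP siNC JUN was at 29.2%, 7.11% and 4.51%, FOXA2OE JUN at 76.0%, 19.3% and 32.5%, and FOXA2K265R JUN at 95.8%, 35.7% and 56.5%. The siFOXA2 list of PC3 gave another order: 2 of the 96 CRE members were called again (2.08%, 0.573 to 7.28), 13.4% of those with an AP-1 word and 3.01% of those with neither. JUN score differed between these groups too, with a median of 61 for those with neither. In the highest score decile, promoter members with an AP-1 word were called again in 49.4% of cases (38.8 to 60.1). Those without one were in 47.1% (26.2 to 69.0). Accessibility moved with the same groups, since the NCI-H660 ATAC list overlapped 96.9%, 62.4% and 87.1% of them, and so did GC content, with means of 66.2%, 58.1% and 63.2%. The part of accessibility, GC content and JUN score in the shares of the 3 groups was not tested.

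**Figure D4:**
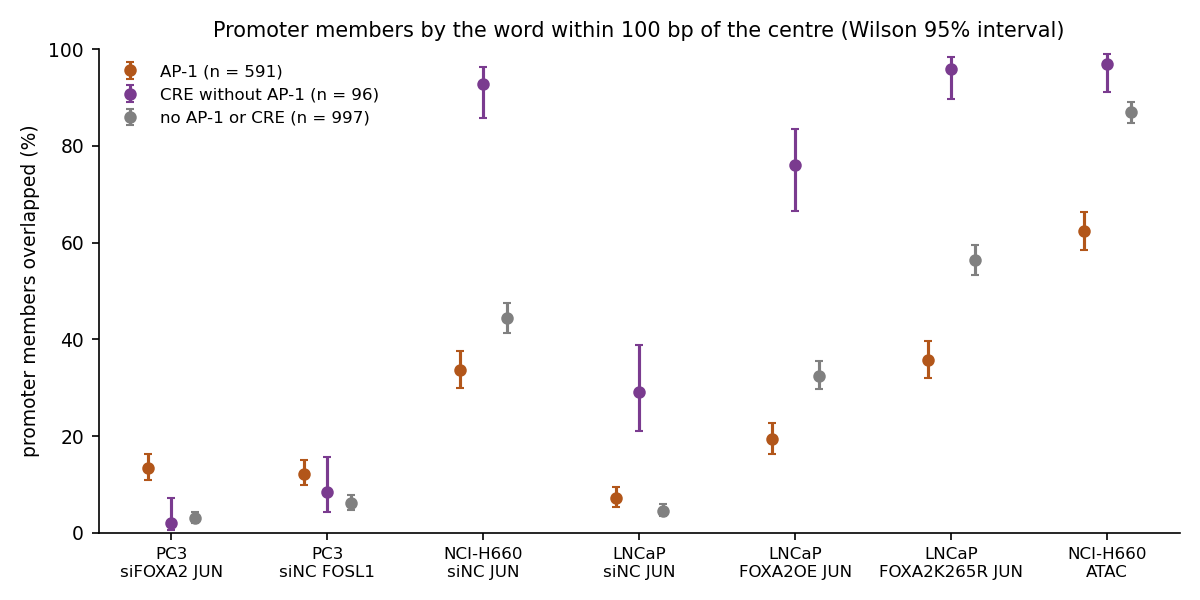
Percent of promoter members (y axis) overlapped in 7 other lists (x axis), split by the word within 100 bp of the centre: AP-1 (orange, 591 regions), CRE without AP-1 (purple, 96) and neither (grey, 997). Points are shares with Wilson 95% intervals. The CRE group lies above both others in NCI-H660 and LNCaP JUN lists, at 92.7% in NCI-H660 siNC JUN, and at 2.08% in the siFOXA2 JUN list of PC3, where the AP-1 group is at 13.4%.

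The highest-scoring distal members in both later FOXA2 ChIPs were called in most PC3 lists. The NRP1 distal region, chr10:33422918-33423412, scored 7149 for JUN under siNC and 1242 under siFOXA2, 1232 for FOSL1, 6682 for H3K27ac and 246 and 174 in the later FOXA2 ChIPs. It was also a JUN region in NCI-H660, with 650 under siNC and 353 under siFOXA2. The region in an intron of KCNMA1, chr10:79110393-79110829, scored 5364 for JUN under siNC, 1169 under siFOXA2 and 665 for FOSL1, with 239 and 208 in the later FOXA2 ChIPs. A region 27007 bp from STX16, chr20:57198878-57199321, scored 3253, 900 and 289 for these, and 57 and 23 in the later FOXA2 ChIPs. All 3 held at least 2 AP-1 words and no forkhead word within 100 bp, and their FOXA2 scores were small beside their JUN scores, on scales that are not comparable between antibodies.

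Distal members in one or neither later ChIP had lower top scores. In one later ChIP, a region 25481 bp from NANOS3, chr19:13961905-13962467, scored 2097 for JUN under siNC and 466 under siFOXA2, and a region in an intron of NTSR1, chr20:61371532-61371984, scored 1900 and 349. NTSR1 encodes a neurotensin receptor, and this region held no AP-1 word but 3 copies of TTAGTCA, 1 base away from it, spaced 75 bp apart. A further KCNMA1 intron region, chr10:79165426-79165845, scored 1752 and 275 in PC3 and was also a JUN region in NCI-H660, with 1550 under siNC and 1225 under siFOXA2. In neither later ChIP, the FUT8 distal region, chr14:65823012-65823449, scored 2005 for JUN under siNC, 284 under siFOXA2 and 191 for FOSL1. The FOSL1 distal region, chr11:65683153-65683544, scored 1844, 409 and 199, and a region in an intron of UQCC1, chr20:33893519-33893933, scored 1791, 408 and 303. The 9 distal regions named so far were all called again under siFOXA2 and all had FOSL1. They were named by class and siNC JUN score, and both shares were far larger in the highest score decile than in the lowest.

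Promoter members of high score were less uniform. In both later ChIPs they were LY6K, chr8:143781146-143781564, at 2046 under siNC and 364 under siFOXA2, S100A2, chr1:153538959-153539381, at 1871 and 509, and SEPTIN9, chr17:75319112-75319530, at 1568 and 290. S100A2 lay in 15 lists, with NCI-H660 JUN scores of 2327 under siNC and 1913 under siFOXA2. In one later ChIP they were PLEC, chr8:145014303-145014766, a cytoskeletal linker, at 1656 and 537, DPP9, chr19:4713575-4713961, a dipeptidyl peptidase, at 1329 and 264, and APBA2, chr15:29253127-29253500, at 733 and 95. In neither they were IGFN1, chr1:201160809-201161257, at 1291 and not called under siFOXA2, PPP2R5B, chr11:64691486-64692250, a regulatory subunit of protein phosphatase 2A, at 958 and 159, and TNFRSF12A, chr16:3070807-3071210, at 925 and 292. The last pair, in contrast to IGFN1, lay in 12 lists each and had no FOSL1. PPP2R5B held no AP-1 word within 100 bp of its centre and 1 elsewhere in the region.

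Genes of the AP-1 family and of the early response to stimuli often had a FOXA2-free JUN region at their own promoter. Over all 19794 protein-coding genes, 1827 (9.23%) had one at the promoter and 35.9% a distal one within 50 kb of a start. Counts per gene list are a description beside these shares, since the lists were chosen with results of these data known and long or gene-dense loci collect more regions. Of 19 AP-1 and small MAF genes, 7 had one at the promoter (36.8%, 19.1 to 59.0): FOSL1 at a JUN score of 546, FOSL2 at 458, ATF3 at 321, JUN at 300, and JUND, MAFF and MAFG. FOSL2 was the one of the first 4 called again under siFOXA2 (194). FOS had a member neither at its promoter nor within 50 kb. Of the 19, 10 had a distal member within 50 kb, led by FOSL1 at 1844, FOSB at 847, ATF3 at 720 and BATF2 at 399, and the first 3 of these were called again.

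Immediate early genes, which respond to growth factors within minutes, had one at the promoter in 7 of 21 (33.3%, 17.2 to 54.6). KLF10, a TGF-beta-induced repressor, led with 1019 and was called again with 260, followed by ZFP36L1 at 232, DUSP1 at 115 and BTG2 at 113. Of 16 chaperone genes 6 had one (37.5%, 18.5 to 61.4), at low scores: BAG3 at 158, CCT5 at 81, and HSPD1 and HSPE1, which share a promoter, at 80. Stress response genes had one in 5 of 21 (23.8%), led by DDIT3, a factor of the unfolded protein response, at 597 and SLC3A2, an amino acid transporter subunit, at 520. Inflammation genes had one in 5 of 18 (27.8%), with TNFAIP3, an NF-kappaB inhibitor, at 434 and called again at 242, IL11 at 255 and IL1A at 158. YAP and TEAD pathway genes had one in 5 of 22 (22.7%), led by F3, tissue factor, at 488 and AJUBA at 210.

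Most basal and mesenchymal genes lay near distal members. Of 26 such genes, 20 (76.9%, 58.0 to 89.0) had a distal member within 50 kb, beside 35.9% of all genes, and 5 (19.2%) had one at the promoter. Among the higher scores were those at PLAU, the urokinase protease, at 1674, CD44, a hyaluronan receptor, at 1118 and ITGA6, a laminin receptor subunit, at 781. These 3 regions were called again under siFOXA2, with 520, 250 and 162, and each had FOSL1 and an AP-1 word. At promoters VIM, vimentin of the mesenchymal cytoskeleton, scored 658 and was called again at 220, followed by KRT15 at 243, CD44 at 158 and FN1 at 150.

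Lineage genes of the other prostate cancer states had promoter members in shares whose intervals included the 9.23% of all genes. No promoter of 15 neuroendocrine genes held one, with an interval up to 20.4%, and 3 had a distal one, CHGB at 156, ENO2 at 154 and POU3F2 at 49. Of 16 luminal genes, 2 had one at the promoter, KRT8 at 344 and SLC45A3 at 230, and 9 (56.3%) a distal one, led by TRPM8 at 1046 and HOXB13 at 942, both called again. Mitosis genes had one in 2 of 20 (10.0%), CENPE at 58 and KIF11 at 37. Larger families lay near the share of all genes at promoters: 7 of 82 ribosomal protein genes (8.54%), 46 of 512 ZNF genes (8.98%), 5 of 78 mitochondrial ribosomal protein genes (6.41%), 7 of 74 respiratory chain genes (9.46%), 5 of 33 splicing factor genes (15.2%) and 3 of 69 replication histone genes (4.35%). Their intervals all included 9.23%.

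**Figure D5:**
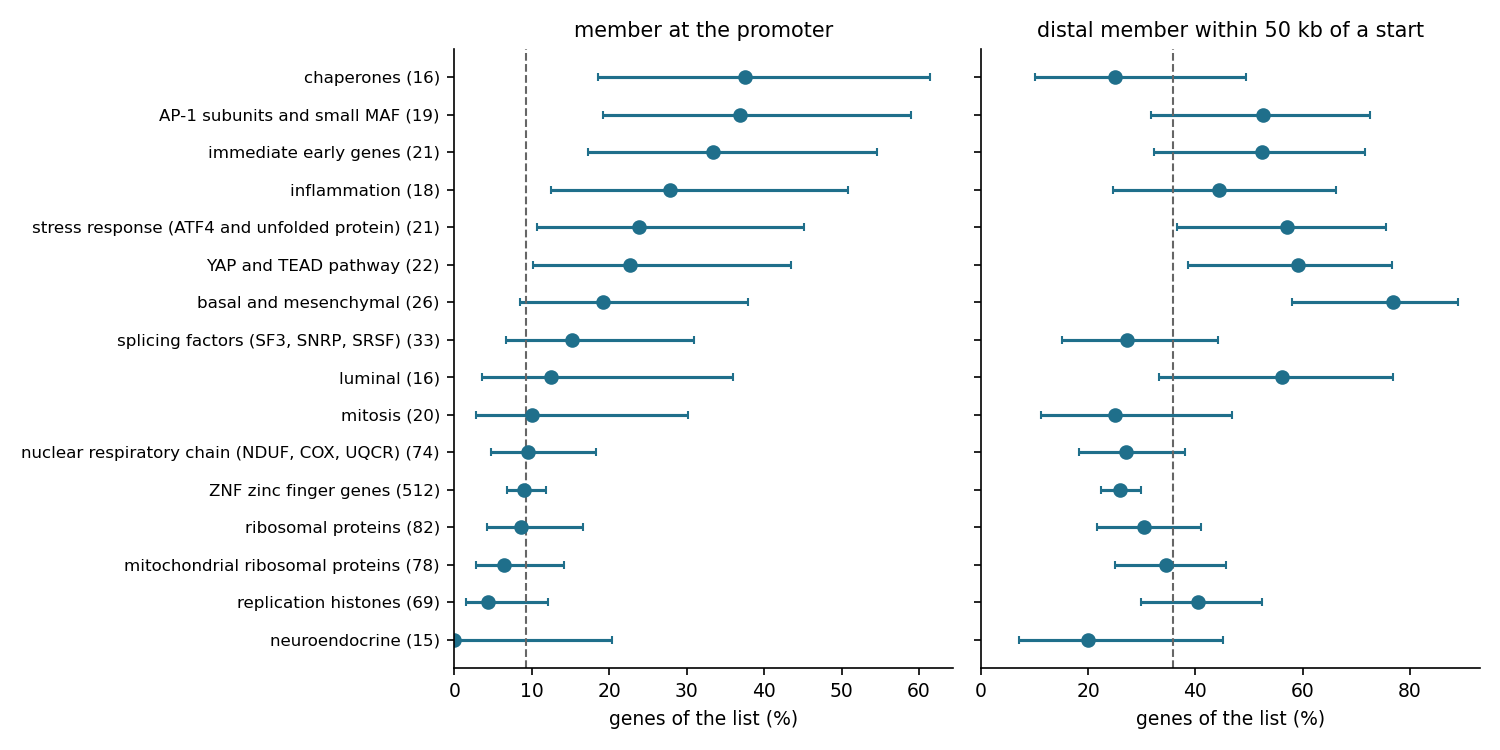
Percent of the genes of each list (x axis; number of genes in brackets) with a FOXA2-free JUN region at the promoter (left) or a distal one within 50 kb of a start (right). Points are shares with Wilson 95% intervals and dashed lines the shares over all 19794 protein-coding genes, 9.23% and 35.9%. AP-1, immediate early and chaperone genes lie to the right of the line at promoters, and basal and mesenchymal genes (76.9%) lie farthest to the right for distal regions.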

How the data were processed

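ChIP-seq and ATAC-seq lists of PC3, NCI-H660 and LNCaP cells were used as deposited. Per the submitters' processing notes, reads were checked with FastQC 0.11.9, aligned to hg19 with BWA 0.7.17-r1188 and handled with SAMtools 1.9, and the authors called enriched regions with MACS2 2.1.4. The control library, the calling thresholds and whether libraries were pooled are not given in the sources used here. The score that the authors deposited with the regions of 20 lists is a whole number, read as 10 times the −log10 q-value from its minimum (13 in most lists, 14 in the first later FOXA2 ChIP, 23 in FOXA2K265R JUN and 30 in FOXA2OE JUN). It served to rank regions within a list. No score was given for JUN in LNCaP siNC cells or for FOXA2 in FOXA2OE cells. Longer lists therefore need not mean more binding, and depth per sample is unknown. The names of regions give the JUN, the vehicle FOXA2 and the later FOXA2 lists of PC3 different processing folders, so folder and factor cannot be told apart, and the later FOXA2 ChIPs carry different codes in their list names, so they may not repeat one assay. No expression was measured, and the cell lines were not checked against marker expression.

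Groups came from the titles. Members and gene lists were chosen with earlier results of these data known. Overlap was 1 bp. Promoters were 1 kb on either side of protein-coding transcript starts in GENCODE 44 for GRCh37. Shares carry Wilson and differences Newcombe 95% intervals, with no test, because regions are not replicates. "At equal JUN score" means the difference averaged over 10 deciles of the siNC JUN score, weighted by the regions in each decile, with a normal interval. Words were counted on both strands within 100 bp of the centre, and GC content over the same window. Windows 2 kb away and all PC3 ATAC regions served as background. Named regions are the 3 highest JUN scores in each of the 6 classes, and the 2 highest promoter and distal members called again under siFOXA2 or with FOSL1, which were among them. Up to 4 genes with the highest-scoring region were named per list, except for a gene that is not reported here. CRE regions, MAFG, FOS and the copies of TTAGTCA were singled out after their values were seen. The scripts used Python 3.11.15, numpy 2.4.6, pandas 2.3.3, scipy 1.17.1, pysam 0.24.0 and matplotlib 3.10.9, and the overlap, word search and intervals were tested on simulated data. Alternatives were other overlaps, score minimums, windows, FOXA2 definitions and equal list lengths.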

Additional observations from a re-analysis of the deposited data

How the results depend on the processing

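With 1 library per group, most shares moved with the settings by more than their counting intervals: over the alternatives, 34 values moved, 15 stayed within their interval and 1 reversed. Requiring 50% of both regions gave 24.7% of members in both later FOXA2 ChIPs (34.2% at 1 bp), 8.81% called again under siFOXA2 (9.40%), 6.59% with FOSL1 (7.40%), 70.8% accessible (94.7%), 3.50% with H3K27ac (76.3%), whose regions are wider (median 573 bp against 302), 9.55% with NCI-H660 JUN (12.1%) and 2.73% with LNCaP JUN (3.03%). A score of at least 100 gave 15.1%, 7.50%, 4.39%, 97.9%, 74.1% and 8.84% for the first 6 of these. Leaving out either later ChIP put the overlap at 37.8% to 46.3%. The promoter share of 12.7% became 15.5% at 2 kb, 10.9% at 500 bp and 20.3% with starts of all transcripts. Members in neither later ChIP gave a promoter share of 18.0%, 8.17% called again, 73.2% with H3K27ac and 16.5% with a forkhead word (27.8%). The AP-1 share of 56.9% became 64.4% within 250 bp and 45.0% within 50 bp, and the forkhead share 53.8% and 14.9%. Equal list lengths gave 43.8% called again. The AP-1 difference from FOXA2-bound regions reversed at promoters, from 15.5 to −10.1 points, but at equal JUN score it was 0.707 points there (−4.64 to 6.06). Alternatives chosen after seeing the data put the siFOXA2 difference between −7.18 and −2.12 points and the NCI-H660 promoter difference between 25.9 and 36.0 points. Dropping the limit of 17 lists was tried for shares of the members alone and moved none of these beyond its interval. The FOXA2-bound JUN regions, 10251 with the limit and 10635 without it, were not recounted. No paired analysis was possible because each group but the later ChIPs held 1 library and no result came from a test. Unknown depth limits every share: a region not called may lie under the threshold.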
